A study of Drosophila melanogaster with 12 samples.

Results

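The Sox genes encode transcription factors that bind DNA through a high mobility group (HMG) box. Rows of the count table were taken for 6 of them by their FlyBase symbols, SoxN, D (Dichaete), Sox14, Sox21b, Sox15 and Sox102F, among 17807 genes in all, and all 6 passed the filter on low counts that left 7584 genes for testing. Libraries came from total RNA of Drosophila melanogaster salivary glands, dissected from prepupae 12 or 14 h after puparium formation; each of the 4 combinations of genotype and time had 3 libraries. All animals carried w1118 and fkh>GFP, a reporter driven by a salivary gland promoter. Controls were heterozygous for the E93Δ1 allele (+/E93Δ1), so they were not free of E93 mutations. Mutants carried the allele pair E93Δ12/E93Δ13 in the whole animal, and the study's design text describes them as null for E93, an ecdysone-induced transcription factor gene (Eip93F in FlyBase). Whether replicate libraries stem from different animals or dissections is not stated in the labels, so the p-values measure the spread between these libraries, which may be technical.

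Sox proteins bend DNA and usually act together with partner factors, and they are grouped by the similarity of their HMG boxes. SoxN, D and Sox21b belong to group B, whose members are best known for specifying neural cells in the embryo, and SoxN also shapes the embryonic epidermis. Sox14, of group C, is a direct target of the steroid hormone ecdysone and is needed for metamorphosis, including the pruning of larval neurons through the actin-oxidizing enzyme Mical. Sox15 (group F) restrains wingless expression in the wing hinge and acts in sensory organ socket cells, and Sox102F (group D) acts in the nervous system, wing and heart. Ecdysone pulses time the late prepupal stage, when the larval salivary gland approaches its destruction, and E93 is one of the genes that these pulses induce in the gland.

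The libraries held 6977403 to 9497317 counts in all, and 3 counts, the limit that a count of 0 allows, amounted to 0.316 to 0.43 CPM (counts relative to the library total). This floor covers counting error only. CPM values below are TMM-scaled (edgeR's trimmed-mean normalisation), their errors are SD with n = 3, and log2 fold changes come from the edgeR quasi-likelihood test over all 12 libraries, with approximate SE and p adjusted over 7584 genes by the Benjamini-Hochberg method. The 12 h control replicate 1 stood apart from its group: on the first principal component (53.5% of the variance) it lay at -3.23, against -55.2 and -62.1 for the other 12 h controls and 60.4 to 64.4 for the 14 h controls. Gut markers summed to 206 CPM in replicate 1 of the 12 h mutants and to 100.2 CPM in replicate 2 of the 14 h mutants, the libraries with gut markers named below. The other mutant libraries had 2.24 to 22.0 CPM and the controls 1.25 to 4.84 CPM. These sums were mostly mesh, Ssk and Tsp2A, which reached 135, 46.4 and 21.1 CPM in 12 h mutants and 56.6, 31.5 and 12.1 CPM in 14 h mutants. The markers lab, betaTry and LManIII were at 0 in every control and had at most 1 count in any mutant library. All 12 salivary gland markers were detected in every group. Their sums were 240.1, 126 and 130 CPM in 12 h controls and 226, 229.5 and 275 CPM in 12 h mutants. At 12 h 6 of 12 were called higher and 0 lower in mutants (median log2 fold change 1.07, all genes 0.01), against 7.94% and 7.87% of all genes. At an unadjusted p under 0.05, 8 were higher and 1 lower. At 14 h the sums were 202 to 234 CPM in controls and 191 to 211 CPM in mutants, with 2 called higher and 0 lower, against 8.29% and 6.91% of all genes. The marker sage was lower on average in mutants, at 34.3 ± 13.9 against 74.3 ± 68.4 CPM at 12 h and 65.6 ± 13.8 against 104 ± 11.4 CPM at 14 h. A single 12 h control library had 153 CPM of sage. The part of these marker differences in the Sox results was not tested. Transcripts over Eip93F itself were higher in the libraries labelled mutant, at 4076 ± 222 against 1721 ± 481 CPM at 12 h and 1985 ± 32.7 against 844 ± 61.3 CPM at 14 h. Gene-level counts leave the coding capacity of these transcripts unknown.

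SoxN was the member with the largest genotype difference at both times. Its gene lies on chromosome 2L at 8825645 to 8829670 (BDGP6, plus strand), is protein coding and overlaps no other annotated gene. At 12 h it stood at 40.9, 28.2 and 36.6 CPM in the controls and at 469, 474 and 415 CPM in the mutants. At 14 h the controls stood at 19.3, 17.1 and 13.5 CPM and the mutants at 798, 807 and 732 CPM. No mutant library came near a control library, and the 3 libraries of each group lay close together.

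The rise of SoxN in mutants was 12.8-fold at 12 h (log2 fold change 3.68, SE 0.2, adjusted p = 3.2e-07) and 46.7-fold at 14 h (5.55, SE 0.21, adjusted p = 1.53e-08). Among 7584 genes only 23 had a larger log2 rise at 14 h. The genotype effect at 14 h exceeded that at 12 h by 1.87 on the log2 scale (SE 0.25, adjusted p = 0.00182 for the difference itself). Time moved SoxN in opposite directions in the genotypes, since it fell by 1.08 (SE 0.18, adjusted p = 0.000548) from 12 to 14 h in controls and rose by 0.78 (SE 0.18, adjusted p = 0.00321) in mutants. These time changes depend on the scaling: with library size alone, which shifted the median of all genes by 0.51 in both time comparisons, they became -0.57 (adjusted p = 0.037) and 1.3 (adjusted p = 0.000285). In bulk samples such as these, more cells that express a gene and more RNA per cell cannot be told apart.

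**Figure D1:**
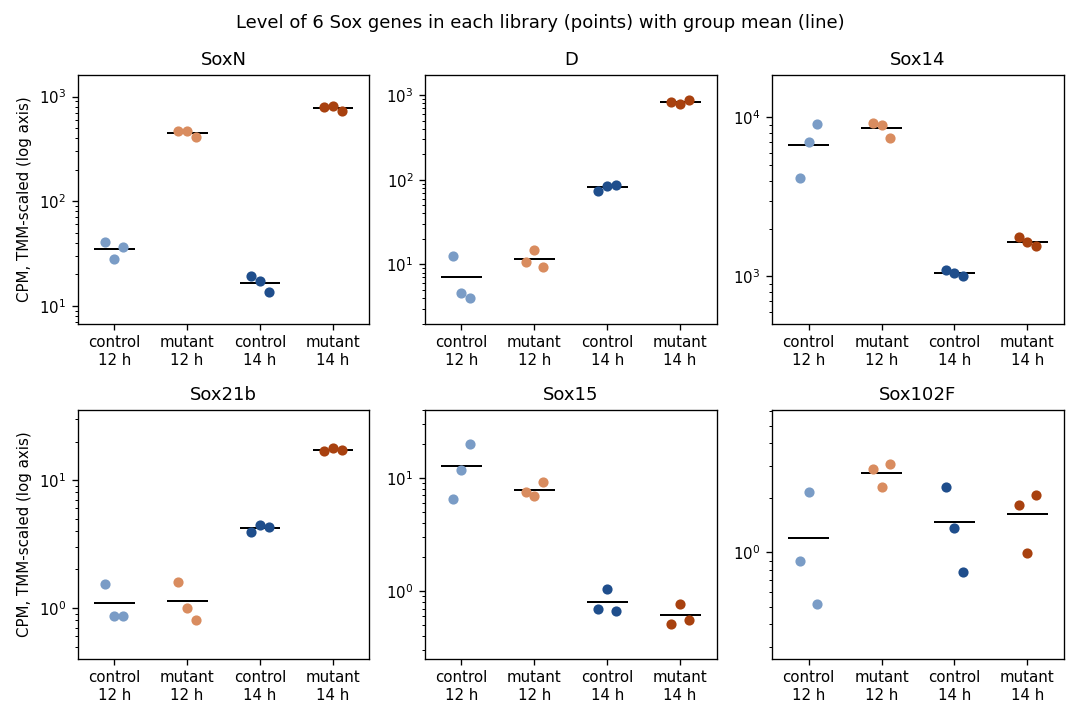
TMM-scaled CPM on a log axis for each of the 6 Sox genes, with 1 point per library in 4 groups of 3 and a line at the group mean. SoxN is high in the mutants of both times (415 to 807 CPM), D and Sox21b are highest in 14 h mutants, and Sox14 and Sox15 are lower at 14 h than at 12 h in both genotypes.

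D and Sox21b differed between the genotypes at 14 h and were not called at 12 h. D (chromosome 3L, 14175610 to 14178620, minus strand) stood at 73.3, 85.1 and 87.3 CPM in 14 h controls and at 820, 792 and 869 CPM in 14 h mutants. Its mutant level was 10.1-fold higher (log2 fold change 3.34, SE 0.34, adjusted p = 3.24e-05). Its 12 h levels were 12.4, 4.61 and 3.98 CPM in controls and 10.7, 14.7 and 9.18 CPM in mutants. These groups overlapped through the control replicate 1 alone, and the difference of 0.7 (SE 0.35) did not pass the test (adjusted p = 0.2). Without that library, which stood apart from its group, D passed at 12 h with 1.39 (adjusted p = 0.00203).

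Sox21b (chromosome 3L, 14112405 to 14131324, minus strand) was far less abundant than D and followed the same order of groups. In 14 h controls it stood at 3.96, 4.49 and 4.32 CPM and in 14 h mutants at 16.9, 17.8 and 17.3 CPM, a 4.06-fold rise (log2 fold change 2.02, SE 0.24, adjusted p = 0.000109). The 12 h libraries held 5 to 12 counts in both genotypes, at 1.53, 0.864 and 0.864 CPM in controls and 1.6, 1 and 0.805 CPM in mutants. The fitted 12 h difference was 0.03 (SE 0.34, adjusted p = 0.986), and its sign changed when a single library was left out.

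Both genes rose steeply between 12 and 14 h, and more so in mutants. D rose by 3.53 on the log2 scale in controls (SE 0.36, adjusted p = 1.5e-05) and by 6.16 in mutants (SE 0.39, adjusted p = 3.23e-06), where 8 genes rose more. Sox21b rose by 1.93 in controls (SE 0.29, adjusted p = 0.000233) and by 3.92 in mutants (SE 0.28, adjusted p = 5.73e-06). The genotype effect was larger at 14 h than at 12 h by 2.63 for D (SE 0.47, adjusted p = 0.0106) and by 1.99 for Sox21b (SE 0.42, adjusted p = 0.0226). Without both libraries with gut markers the D difference was 2.61 (adjusted p = 0.0663). Without the 12 h control replicate 1 it was 1.91 and still passed (adjusted p = 0.0021), and the Sox21b difference was 1.64 (adjusted p = 0.0795).

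Levels per kilobase of exon place the group B genes on 1 scale. In 14 h mutants D reached 282 ± 13.2 CPM per kb, above SoxN at 194 ± 10.1 and Sox21b at 5.37 ± 0.135. In 12 h mutants the order was SoxN at 112 ± 8.07, D at 3.93 ± 0.976 and Sox21b at 0.352 ± 0.128 CPM per kb. Per kb, D exceeded Sox21b 20.4 to 22.2 times in 14 h controls and 49.0 to 55.2 times in 14 h mutants, ranges that did not overlap.

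Sox14, the ecdysone target, was by far the most abundant Sox gene at 12 h and was not called between genotypes at either time. It lies on chromosome 2R at 23978801 to 23985177 (plus strand) and shares 3 bases of exon with Phm on the opposite strand. At 12 h it stood at 4126, 6949 and 9035 CPM in controls and at 9234, 8898 and 7376 CPM in mutants, groups that overlapped. The difference was 0.34 (SE 0.24, adjusted p = 0.383), and without the 12 h control replicate 1, the lowest library, it was 0.05. At 14 h the values were 1098, 1051 and 1010.3 CPM in controls and 1764, 1645 and 1552 CPM in mutants. These groups did not overlap, and the difference of 0.65 (SE 0.24) missed the threshold (adjusted p = 0.0975). It passed in a fit of the 14 h libraries only (0.62, adjusted p = 0.00251) and in a fit without the 12 h control replicate 1 (0.61, adjusted p = 0.0189).

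The fall of Sox14 with time passed in both genotypes. Its log2 change was -2.67 in controls (SE 0.26, adjusted p = 1.08e-05) and -2.36 in mutants (SE 0.26, adjusted p = 2.83e-05), and these falls differed by 0.31 (SE 0.34, adjusted p = 0.8). Per kilobase it ranked 56 of 7542 genes in 12 h controls and 198 in 14 h controls.

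Sox15 (chromosome 2R, 14201390 to 14212413, minus strand) fell with time like Sox14, from a much lower level. It stood at 6.52, 11.8 and 20.0 CPM in 12 h controls and at 7.52, 6.86 and 9.18 CPM in 12 h mutants. At 14 h the controls stood at 0.693, 1.04 and 0.665 CPM and the mutants at 0.509, 0.768 and 0.561 CPM, with 5 to 10 counts per library. The log2 change was -3.96 in controls (SE 0.42, adjusted p = 1.87e-05) and -3.65 in mutants (SE 0.43, adjusted p = 4.42e-05). Neither genotype difference passed, with -0.7 at 12 h (SE 0.34, adjusted p = 0.198) and -0.39 at 14 h (SE 0.5, adjusted p = 0.697). Without the 12 h control replicate 1 the 12 h difference was -1.06 and passed (adjusted p = 0.0262).

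Sox102F (chromosome 4, 800436 to 834393, minus strand) was near the limit of detection in every library, with 3 to 23 counts. At 12 h it stood at 0.895, 2.16 and 0.519 CPM in controls and at 2.88, 2.29 and 3.06 CPM in mutants. The mutants were higher without overlap, and the difference of 1.17 (SE 0.52) did not pass the test (adjusted p = 0.153). It passed without the 12 h control replicate 2 (1.9, adjusted p = 0.0473). At 14 h the groups overlapped, at 0.776 to 2.28 CPM in controls and 0.988 to 2.06 CPM in mutants. Of its exon length 5.42% is shared with an annotated transposable element on the opposite strand.

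**Figure D2:**
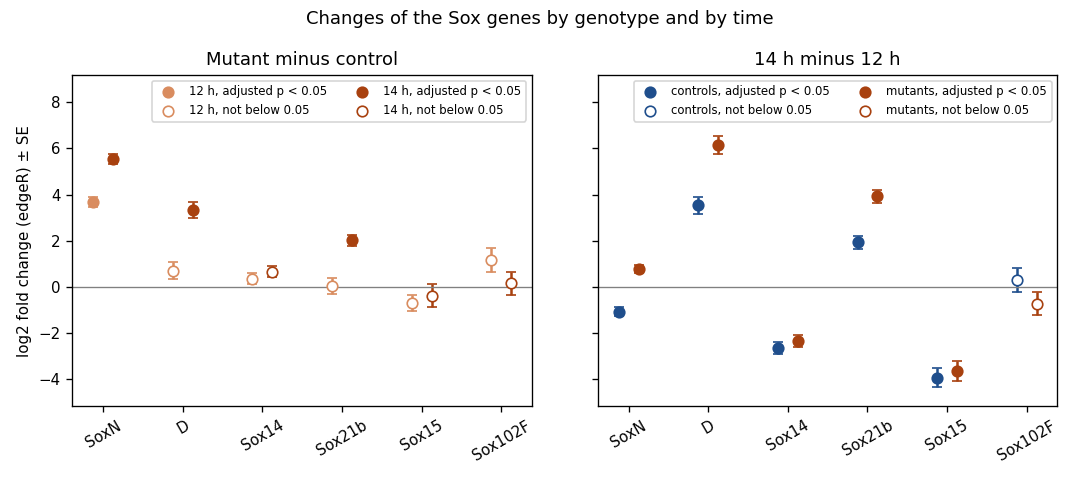
Log2 fold change with SE (edgeR) of each Sox gene, between genotypes at 12 and 14 h (left) and between times in controls and mutants (right); filled points have an adjusted p under 0.05. SoxN is called at both times, D and Sox21b only at 14 h in this fit, and SoxN changes sign between the genotypes in the right panel.

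Counted together, 1 of 6 members was higher and 0 lower in mutants at 12 h, where 15.8% of all genes tested were called, 7.94% higher and 7.87% lower. At 14 h 3 of 6 were higher and 0 lower, against 15.2% of all genes, 8.29% higher and 6.91% lower. No member was lower at either time at an unadjusted p under 0.05 or by DESeq2, so these counts of 0 lower were also 0 there. The median log2 fold change of the 6 was 0.52 at 12 h and 1.34 at 14 h, and that of all genes was 0.01 and 0.05. Without the 12 h control replicate 1 the 12 h count was 3 in place of 1, with D added as higher and Sox15 as lower, and without the 12 h control replicate 2 it was 2, with Sox102F added as higher. Libraries of mutants and controls did not overlap for 2 members at 12 h and 4 at 14 h, all higher in mutants. Over all genes, 14% were higher and 13.7% lower without overlap at 12 h, and 22.2% and 20.3% at 14 h.

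With time, 2 members rose and 3 fell in controls, against 20.8% and 22.4% of all genes (43.2% in all), and 3 rose and 2 fell in mutants, against 22.6% and 22.4% (45.1% in all). The times did not overlap for 2 higher and 3 lower members in controls, where 30.4% and 26% of all genes did so, and for 3 and 3 in mutants, where the shares were 29.6% and 25.4%. The genotype effect was larger at 14 h for 3 of 6 members and smaller for 0 (also 0 at an unadjusted p under 0.05 and by DESeq2), while 2.72% of all genes were called, 1.75% larger and 0.963% smaller.

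The order of the 4 groups differed from gene to gene. SoxN ran from 14 h mutants through 12 h mutants and 12 h controls to 14 h controls, with no overlap between neighbours. D and Sox21b shared the order 14 h mutants, 14 h controls, 12 h mutants and 12 h controls, and in both genes the last pair overlapped. Sox14 was highest in 12 h mutants and 12 h controls, which overlapped, then in 14 h mutants and 14 h controls, which did not. Sox15 separated the times and overlapped between genotypes at each time, and in Sox102F the 12 h mutants stood above the other groups, which overlapped with each other.

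The make-up of the family shifted accordingly. Sox14 held 99.1 ± 0.461% of the summed level per kb of the 6 genes in 12 h controls, 95.2 ± 0.246% in 12 h mutants, 89.6 ± 0.863% in 14 h controls and 49.0 ± 1.62% in 14 h mutants. In the last group D held 29.9 ± 2.05% and SoxN 20.5 ± 0.818%. The summed level itself was 1888 ± 688 CPM per kb in 12 h controls, 2495 ± 285 in 12 h mutants, 328 ± 10.8 in 14 h controls and 943 ± 30.04 in 14 h mutants.

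**Figure D3:**
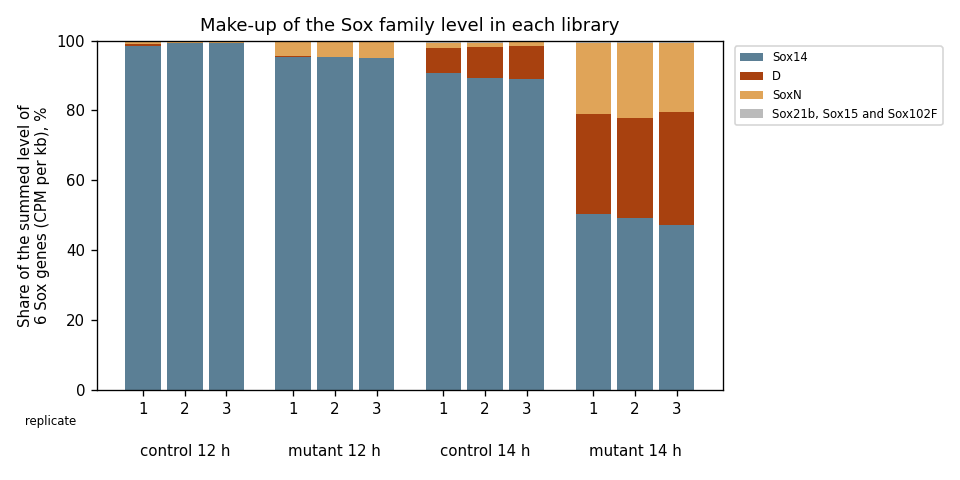
Share of the summed level (CPM per kb of exon) of the 6 Sox genes held by Sox14, D, SoxN and the other members together, as stacked bars for each library in percent. Sox14 holds nearly the whole level at 12 h and 49.0% on average in 14 h mutants, where D and SoxN make up nearly all of the rest.

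The neighbourhood of SoxN was examined for all 12 rows of the table within 50 kb of the gene, of which 3 could be tested. The long noncoding RNA gene lncRNA:CR44414, which starts 42.2 kb downstream on the same strand, had 5 counts over the 12 h controls and 282 over the 12 h mutants, and 4 and 2078 counts over the 14 h groups. It was called higher in mutants at both times (log2 fold change 5.8, SE 0.45, adjusted p = 4.94e-06 at 12 h and 8.82, SE 0.45, adjusted p = 1.64e-07 at 14 h), and these fitted values depend on the prior count because the controls are so low. The antisense gene asRNA:CR45260 had 2 and 23 counts at 12 h and 6 and 111 at 14 h and was also called at both times (3.44, adjusted p = 0.0248, and 4.08, adjusted p = 0.00128). Its exons overlap 5 genes of the opposite strand, CG32986, CG32987, CG32988, CG32983 and CG9483, so reads of these genes and of asRNA:CR45260 cannot be told apart without strand, and the strand setting is not given. Of these, CG32986 had 0 and 23 counts over 14 h controls and mutants and CG9483 had 3 and 19.

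On the other side of SoxN the nearest tested genes did not share the pattern. The gene raw ended 84985 bases away and differed by -0.5 at 12 h (SE 0.18, adjusted p = 0.0793) and -0.04 at 14 h (SE 0.18, adjusted p = 0.925). For Hnf4, which encodes a nuclear receptor, the differences were -0.09 and -0.22 (adjusted p = 0.787 and 0.538).

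D and Sox21b are themselves neighbours, and their starts lie 47.3 kb apart. The table holds 15 rows within 80 kb of D, 7 of them tested. Besides D and Sox21b, Fbp1, which encodes a receptor for larval storage protein, was higher in 14 h mutants (0.8, SE 0.24, adjusted p = 0.0423). Fbp1 is also a fat body marker of the list below, of which 7 were tested. It was the 1 called higher at 14 h, with 0 lower, against 8.29% and 6.91% of all genes. The part of fat body RNA in this difference was not tested. On the other side of D, nuf, which encodes a Rab11-binding protein of recycling endosomes, was abundant and differed by 0.16 (SE 0.16, adjusted p = 0.602), and saturn, CG7768 and CG7924 were not called.

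**Figure D4:**
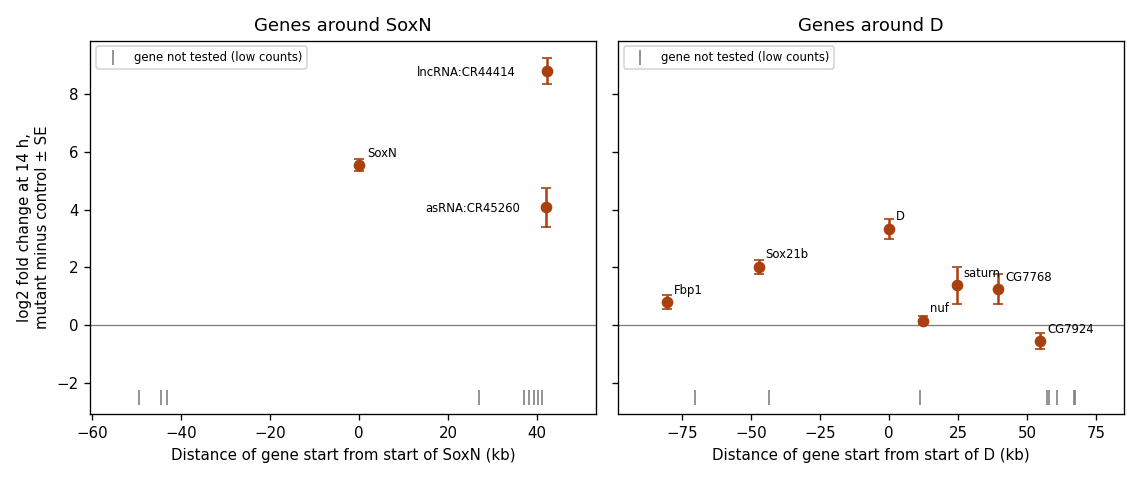
Log2 fold change with SE of mutants against controls at 14 h for the tested genes around SoxN (left) and D (right), against the distance of each gene's start from the start of SoxN or D in kb along the chromosome; grey ticks mark genes with too few counts to test. The tested noncoding genes beside SoxN are higher together with it, and nuf, 12.3 kb from D, lies near 0.

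Genes were ranked by likeness to each member, as the Pearson correlation of log2 CPM over the 12 libraries. The libraries fall into 4 groups and share these, so r describes shared group differences. Most like SoxN were ko, Asph, veil, cbt and COX7C (r = 0.981 to 0.959). All 5 were called higher in mutants at both times, against 7.94% of all genes at 12 h and 8.29% at 14 h. These calls follow largely from the choice of the 5 genes by likeness to SoxN. The differences were 5.66 and 5.96 on the log2 scale for ko and 1.53 and 3.37 for cbt, a zinc-finger transcription factor gene. The ranking left out the members and all genes with provisional symbols (CG, CR, lncRNA and asRNA). No tested gene in the window around SoxN could therefore appear in it, lncRNA:CR44414 and asRNA:CR45260 included.

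Those most like D were drk, nebu, Inx2, Inx3 and sdk (r = 0.975 to 0.966), which include an adaptor of receptor tyrosine kinases (drk) and gap junction subunits (Inx2 and Inx3). The mean of Inx2 was 57.3, 63.9, 183 and 449.8 CPM in 12 h controls, 12 h mutants, 14 h controls and 14 h mutants. For Sox21b they were Rtca, Rpt5, nebu, mir-4954 and drk (r = 0.976 to 0.957), so drk and nebu stood on both lists. D and Sox21b correlated with each other at r = 0.988 and with SoxN at 0.391 and 0.354.

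Most like Sox14 were RhoGEF2, Hr4, Myd88, rump and pdgy (r = 0.999 to 0.996), of which Hr4 encodes a nuclear receptor of the ecdysone response. Those for Sox15 were Trc8, bchs, Adsl, Mgstl and tamo (r = 0.989 to 0.987), and Sox14 and Sox15 correlated at r = 0.937. For Sox102F, krz, 5PtaseI, Dph5, CstF50 and Pfdn5 came out at r = 0.884 to 0.799, values from low counts.

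The ecdysone input and the route from Sox14 to Mical were read from 12 listed genes, all tested. At 12 h 1 was higher and 1 lower in mutants, where 7.94% and 7.87% of all genes were called. At 14 h 1 was higher and 2 lower (median -0.07, all genes 0.05), against 8.29% and 6.91% of all genes. The 2 lower of 12 lay above the share, a count too small to read further. At an unadjusted p under 0.05, 3 were higher and 2 lower at 12 h and 2 and 3 at 14 h. DESeq2 called 2 higher and 1 lower at 12 h and 1 and 3 at 14 h. Mical fell from 24370 ± 3506 CPM in 14 h controls to 12083 ± 2847 in 14 h mutants (-1.01, SE 0.27, adjusted p = 0.0225), while Sox14 was not lower in any 14 h mutant library than in a control. The chromatin remodeler gene brm, whose product acts with the ecdysone receptor, fell from 40.6 ± 3.97 to 17.1 ± 2.15 CPM (-1.25, SE 0.21, adjusted p = 0.00127). The ubiquitin ligase gene slmb rose from 54.3 ± 6.30 to 126 ± 19.2 CPM (1.21, SE 0.28, adjusted p = 0.0102), and the nuclear receptor gene Hr39 differed by 0.45 (SE 0.15, adjusted p = 0.072).

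Other HMG-box genes were not called between genotypes: of 15 listed genes with a row, 11 were tested and 0 were higher or lower at 12 or 14 h by edgeR. Over all genes 15.8% were called at 12 h and 15.2% at 14 h. The 0 of 11 lay below these shares, a count too small to read further. At an unadjusted p under 0.05, 2 were higher and 1 lower at 12 h and 0 and 1 at 14 h, and DESeq2 called 0 higher and 1 lower at each time. The smallest p at 14 h belonged to HmgD, a chromatin protein gene, with -1.1 (SE 0.41, adjusted p = 0.0986). HmgZ differed by -0.48 (adjusted p = 0.184), Bap111 by 0.69 (adjusted p = 0.224) and Dsp1 by -0.32 (adjusted p = 0.265). The list's median was 0.4 at 12 h (all genes 0.01) and 0.13 at 14 h (all genes 0.05).

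Wingless pathway genes, on which SoxN and Sox15 act elsewhere in the fly, held 1 higher and 3 lower of 20 tested at 12 h and 0 higher and 2 lower at 14 h (edgeR, median -0.12, all genes 0.05). The shares over all genes were 7.94% higher and 7.87% lower at 12 h and 8.29% and 6.91% at 14 h. The 3 lower of 20 at 12 h lay above the share and the 0 higher at 14 h below it, counts too small to read further. The median at 12 h was -0.25 (all genes 0.01). The 12 h counts were 1 higher and 6 lower at an unadjusted p under 0.05 and 1 and 4 by DESeq2. The 14 h counts were 0 and 4 at an unadjusted p under 0.05 and 0 and 3 by DESeq2. The receptor gene fz fell from 32.7 ± 1.34 CPM in 14 h controls to 11.2 ± 0.725 in 14 h mutants (-1.55, SE 0.22, adjusted p = 0.000422), and the kinase gene sgg from 465 ± 61.1 to 199 ± 16.7 CPM (-1.23, SE 0.24, adjusted p = 0.00447). The beta-catenin gene arm (-0.52, adjusted p = 0.0706) and fz3 (-1.47, adjusted p = 0.154) were not called at 14 h.

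Epidermal cell shape genes that SoxN and ovo are known to control in the embryo had 15 listed, 14 matched and 6 tested genes. Of the tested genes 2 were higher and 0 lower in mutants at each time by edgeR and by DESeq2. Over all genes edgeR called 7.94% higher and 7.87% lower at 12 h and 8.29% and 6.91% at 14 h. The list's median was -0.17 at 12 h (all genes 0.01) and 0.77 at 14 h (all genes 0.05). At an unadjusted p under 0.05, 1 was lower at each time. The hair-patterning gene mwh rose from 53.4 ± 4.02 CPM in 14 h controls to 251 ± 22.8 in 14 h mutants (2.23, SE 0.38, adjusted p = 0.00151). The zona pellucida domain gene zye rose from 0.704 ± 0.777 to 8.28 ± 2.76 CPM (3.49, SE 0.61, adjusted p = 0.00191). The actin-bundling gene sn differed by -0.76 (adjusted p = 0.151) and neo by 0.96 (adjusted p = 0.222). The ovo gene itself was not tested, with 0 to 9 counts per library, at 0.45 ± 0.102 CPM in 14 h controls and 0.379 ± 0.479 in 14 h mutants.

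Early neural partners and targets of group B Sox factors held 8 tested genes, with 0 higher and 2 lower in mutants at 12 h and 1 higher and 0 lower at 14 h by edgeR. Of all genes 7.94% were higher and 7.87% lower at 12 h and 8.29% and 6.91% at 14 h, so the 14 h count lay near the background. At an unadjusted p under 0.05 and by DESeq2, 0 were higher at 12 h and 1 was lower at 14 h. The homeobox gene ind fell at 12 h from 10.2 ± 5.2 to 1.89 ± 0.42 CPM (-2.43, SE 0.47, adjusted p = 0.00479) and scrt from 8.34 ± 2.12 to 2.44 ± 0.839 CPM (-1.77, SE 0.4, adjusted p = 0.0104). At 14 h comm, an axon guidance gene, was higher at 2.28 ± 0.364 against 0.423 ± 0.229 CPM (2.4, SE 0.73, adjusted p = 0.0441). The neuronal gene elav stood at 8.04 ± 1.8 CPM in 14 h controls and 17.4 ± 1.59 in 14 h mutants (1.11, SE 0.63, adjusted p = 0.29).

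Some single markers of other cell types moved with these values, and their part in the Sox results was not tested. Neuron markers, all 8 detected at 14 h, were summed at 18.1 to 20.6 CPM in 14 h controls and 27.1 to 31.7 CPM in 14 h mutants, and at 5.33 to 32.7 and 4.58 to 9.76 CPM at 12 h, the highest being the control replicate 1. Of these sums at 14 h, elav alone made up 8.04 and 17.4 CPM on average. The marker cac went the other way, at 5.64 ± 0.658 against 1.76 ± 0.0751 CPM at 14 h and 10.8 ± 10.7 against 1.61 ± 0.317 CPM at 12 h. Of 5 tested neuron markers, edgeR called 0 higher and 1 lower in mutants at 12 h and 1 higher and 0 lower at 14 h. Over all genes 7.94% and 7.87% were called at 12 h and 8.29% and 6.91% at 14 h. DESeq2 called 1 higher and 1 lower at 14 h. VAChT was at 0 in all 12 h mutants, the glial marker alrm in all 12 h libraries of both genotypes, Yp1 of the fat body in 12 h mutants and eater of hemocytes in 12 h controls and 14 h mutants. Glia markers were summed at 234 to 286 CPM in 14 h controls and 85.6 to 102 CPM in 14 h mutants, and at 250.1 to 431 and 228 to 265 CPM at 12 h. The 14 h gap lay in Gs2 (90.2 ± 18.5 against 11.7 ± 2.95 CPM) and moody (152 ± 9.85 against 70.4 ± 2.89 CPM), while nrv2 stood at 10.5 and 10.8 CPM and repo at 1.36 and 1.43 CPM. At 12 h moody was again lower in mutants (273 ± 68.1 against 133 ± 8.6 CPM). Gs2 was higher in mutants there (58.1 ± 23.5 against 99.9 ± 20.8 CPM). Of 4 tested glia markers edgeR called 0 higher and 1 lower at 12 h and 0 and 2 at 14 h, with the shares over all genes as above. At an unadjusted p under 0.05, 1 was higher at 12 h. Imaginal ring and disc markers (7 with a row) were summed at 8.54 to 11.7 CPM in 14 h controls and 22.5 to 40.3 CPM in 14 h mutants, and at 9.51 to 19.6 and 17.4 to 22.7 CPM at 12 h. Most of the 14 h gap lay in ptc (6.87 ± 0.874 against 23.3 ± 6.67 CPM), en stood at 0.169 and 0.167 CPM and vg at 0.0678 and 0.0366 CPM, and 1 of 3 tested markers was called. Epidermis and trachea markers (8 with a row) stood at 38.9 to 52.9 and 61.4 to 103 CPM at 14 h and at 248 to 418 and 317 to 530.3 CPM at 12 h. At 14 h these sums were mostly Ddc (11.7 against 26.4 CPM), verm (13.9 against 23.2 CPM) and serp (12.8 against 23.7 CPM). The others were low, with grh at 2.58 and 2.89 CPM, ple at 0.314 and 0.522 CPM and btl at 0.45 and 1.03 CPM. Lower in mutants were ovo, at 0.45 against 0.379 CPM, and trh, at 2.95 against 2.14 CPM. Of 5 tested markers edgeR called 1 higher and 0 lower in mutants at 14 h and 0 at 12 h, with the shares over all genes as above.

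Fat body markers (8 with a row) were summed at 501 to 550.0 CPM in 14 h controls and 423 to 680 CPM in 14 h mutants, and at 155 to 223 and 142 to 254 CPM at 12 h. Hemocyte markers (6 with a row) stood at 980 to 1029 and 861 to 896 CPM at 14 h and at 1356 to 1511 and 917 to 1228 CPM at 12 h. These sums were almost wholly crq, at 1428 ± 77.6 CPM in 12 h controls and 993 ± 26.3 CPM in 14 h controls. The other markers were low and did not follow it, with srp at 2.24 and 5.87 CPM, NimC1 at 1.61 and 3.87 CPM and Pxn at 1.23 and 3.98 CPM in the same groups. Without both libraries with gut markers the SoxN and D differences at 14 h and the SoxN difference at 12 h passed the test as before, between 5.42 and 5.67 for SoxN at 14 h over all alternatives and between 3.26 and 3.38 for D.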

How the data were processed

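The authors deposited 1 table of raw counts (whole numbers, not normalised). Per the submitters' processing notes, which give neither order nor role, the software included featureCounts 1.6.3, STAR 2.7.6a, DESeq2 1.30.1 and cutadapt 1.16, on BDGP6. The annotation release, strand setting and treatment of multi-mapping reads are not given in the sources used here. Names, positions and exon lengths come from Ensembl's BDGP6 annotation, whose release may differ from the authors', and matched 17710 of 17807 genes.

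Genes were filtered with filterByExpr, scaled by TMM and fitted with edgeR 4.0.16 (R 4.3.3) in 1 model of the 4 groups (12 libraries, 8 residual df). Genes were called at a Benjamini-Hochberg adjusted p under 0.05. SE was derived as |log2 fold change|/sqrt(F) and is approximate at low counts. Levels per kb use the union of annotated exons. Correlations used log2 CPM with a prior count of 2. The named genes were the 6 members, the 5 genes most like each, and up to 4 genes of each pathway list with the smallest p at 14 h. The genes around SoxN and D were chosen by position, and ovo, CG32986 and CG9483 outside this rule. The members, lists and left-out libraries were chosen with earlier results of these data known. The gene hng3, listed by error among HMG-box genes, was left out, and esg and wrly were not analysed here. Alternatives were DESeq2 1.42.0, other scalings and filters, the compared groups only, a replicate block, an adjusted p under 0.01, and leaving out libraries. The steps were tested on simulated data.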

Additional observations from a re-analysis of the deposited data

Results flagged for a closer look

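For 3 of the 6 Sox genes the genotype effect differed between the times by a test of the difference itself (edgeR, adjusted over all genes). Over all genes 2.72% were called, 1.75% with a larger and 0.963% with a smaller effect at 14 h. The effect at 14 h exceeded that at 12 h by 1.87 on the log2 scale for SoxN (adjusted p = 0.00182), by 2.63 for D (adjusted p = 0.0106) and by 1.99 for Sox21b (adjusted p = 0.0226). The Sox21b call was lost without any 1 of 8 libraries (adjusted p up to 0.0795), and the D call was lost without both libraries with gut markers (2.61, adjusted p = 0.0663). The mutants exceeded the controls in 3 of 3 libraries at 14 h for each of these genes, as was so for 22.2% of all genes. This separation concerns 14 h alone and not the difference between the times.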

How the results depend on the processing

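The calls for SoxN at both times, for D and Sox21b at 14 h and for the 5 members called in each time comparison were kept under every alternative run. Counts of members called at 12 h ran from 1 to 3 over left-out libraries, and 2 were called without both libraries with gut markers and the 12 h control replicate 1. At an adjusted p under 0.01 the difference between the times called 1 member. Over all genes, leaving out 1 library gave 788 to 1167 calls at 12 h, 736 to 1588 at 14 h and 115 to 441 for the difference, in place of 1199, 1153 and 206. The compared groups only gave 409 at 12 h and 2135 at 14 h, and an adjusted p under 0.01 gave 520, 636 and 71. DESeq2 gave 338 for the difference, and leaving out both libraries with gut markers gave 692 at 12 h and 86 for the difference. The cause was not tested.

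Signs changed only for values that were not called. The 12 h difference of Sox21b became -0.0061 with the compared groups only and -0.28 without both libraries with gut markers, and that of Sox14 became -0.018 without these and the 12 h control replicate 1, a setting in which the Sox14 difference between the times was 0.65. Over left-out libraries the ranges were -0.29 to 0.35 (Sox21b at 12 h), 0.05 to 0.62 (Sox14 at 12 h), -0.15 to 0.60 (Sox102F at 14 h), -0.17 to 1.00 (Sox102F with time in controls), -0.0063 to 0.56 (Sox14, difference between the times) and -0.20 to 0.64 (Sox15, the same). No pairing by replicate number was applied. Equal numbers gave 18 pairs of libraries whose deviations from their groups correlated at -0.257 to 0.238. With the replicate number as a block 1 and 3 members were called at 12 and 14 h and 1041 and 1103 genes in all. Sox21b at 12 h, Sox15 at 14 h and Sox102F rest on 3 to 23 counts per library.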

Other observations

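Another pair of Sox genes in the table had too few counts to test. Sox21a, which lies beside Sox21b on chromosome 3L and is known from intestinal stem cells, had 0 counts in each of the 6 control libraries. The mutant libraries held 21, 2 and 1 counts at 12 h and 4, 3 and 1 at 14 h. The library with 21 counts is the 12 h mutant replicate 1, which also held the highest gut marker sum (206 CPM). The 14 h mutant replicate 2, with 100.2 CPM of gut markers, held 3 counts of Sox21a. The 14 h mutant replicate 1, with 2.24 CPM of gut markers, held 4. The part of gut RNA in the Sox21a counts was not tested. Sox100B had 0 to 2 counts in every library.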
